A study of Rattus norvegicus with 74 samples.

Results

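The genes described here are 9 regulators and markers of the muscle stem cell and of the myogenic programme in rats: Pax7, Cdh15, Myf5, Myod1, Myog, Myf6, Mef2a, Mef2c and Mef2d. They were taken by symbol from the deposited count tables, which list 30560 genes, and all 9 were found once in each table. Total RNA depleted of ribosomal RNA was sequenced from 3 sources: red inner gastrocnemius (SM), a mitochondrial preparation of that muscle made with antibodies and treated with RNase (MT), and left ventricle (LV), all of male wild-type Wistar Kyoto rats, 9 weeks old. The exercise-trained group (ExT) ran on a treadmill on 5 days a week for 4 weeks from the age of 5 weeks, at 20 m/min for 60 min a session after a build-up in the first week, and was killed 24 hours after the end of training. The sedentary group (Sed) stood on a stationary treadmill for as long, and the drinking water of both groups held 8% deuterium oxide by volume. There were 15 Sed and 15 ExT rats in SM and in MT, and 7 of each in LV, each library coming from 1 rat and the LV rats being among the SM rats. SM and MT libraries were made with 1 kit from 50 ng and 10 ng of RNA and LV libraries with another from 100 ng, so that tissue, kit and input cannot be told apart in a comparison of tissues.

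Satellite cells are the stem cells of skeletal muscle, lying between the fibre and its basal lamina, and the transcription factor Pax7 marks them. When they are activated, the basic helix-loop-helix factors Myf5 and Myod1 commit them to the muscle lineage, Myog drives their differentiation, and Myf6 is the family member most prominent in mature fibres, where Myod1 and Myog are also expressed. The MEF2 factors (Mef2a, Mef2c and Mef2d) act with these factors on muscle genes in fibres, and also work in the heart, which has no satellite cells. Myogenic factors bind the E-box, and MEF2 proteins bind an A/T-rich site.

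Total counts per library ran from 19477976 to 39401323 in SM, from 54645657 to 75758777 in LV and from 530397 to 9988027 in MT, where mitochondrial-genome genes took 12.9% to 95.4% of the counts. Levels are given as CPM, a gene's counts scaled to a common library total, after TMM scaling within each tissue, and a gene is called when edgeR's quasi-likelihood test gave a Benjamini-Hochberg adjusted p under 0.05 over all genes tested. Rats carry numbers from 2 to 32, and in SM 1762 of 13570 genes, or 13%, were called between rats 17 to 32 and rats 2 to 16 with the training group in the model. What the 2 ranges stand for is not given in the sources used here, so values within each range stand beside the pooled ones. The labelled tissues carried their own markers. The 8 fast-fibre genes in the tables summed to 51640 CPM or more in each SM library and to 5.20 CPM or less in each LV library, and the 12 cardiomyocyte genes summed to 21522 CPM or more in each LV library and to 15.7 CPM or less in each SM library. In bulk tissue, fewer cells of a type and less RNA per cell cannot be told apart.

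Promoter sequence from RefSeq (assembly GRCr8, whereas the counts were made on mRatBN7.2) matched 7 of the 9 genes, Myod1 and Mef2c being the others. The 250 bases before the start of 4 of them are shown because these windows hold a match to the general E-box or MEF2 pattern. Binding of any factor to these matches was not tested. Capitals mark matches to the E-box, CANNTG, and to the MEF2 site, each written 5′ to 3′ on the strand of the gene. The MEF2 site was searched only as YTAWWWWTAR, where Y is C or T, W is A or T and R is A or G. Both patterns read the same on either strand. A stretch that misses the pattern at its last base, such as ctatatttat in the Myog window, stays in lower case. The windows are chr13:48297226-48297475 (+ strand) for Myog, chr7:44701314-44701563 (- strand) for Myf6, chr19:67814407-67814656 (+ strand) for Cdh15 and chr1:130392163-130392412 (- strand) for Mef2a.
Myog: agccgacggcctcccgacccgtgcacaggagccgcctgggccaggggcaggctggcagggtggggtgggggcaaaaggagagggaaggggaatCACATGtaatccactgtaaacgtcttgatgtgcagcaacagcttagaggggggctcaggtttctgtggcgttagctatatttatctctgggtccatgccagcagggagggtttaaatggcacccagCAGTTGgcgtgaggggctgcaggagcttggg
Myf6: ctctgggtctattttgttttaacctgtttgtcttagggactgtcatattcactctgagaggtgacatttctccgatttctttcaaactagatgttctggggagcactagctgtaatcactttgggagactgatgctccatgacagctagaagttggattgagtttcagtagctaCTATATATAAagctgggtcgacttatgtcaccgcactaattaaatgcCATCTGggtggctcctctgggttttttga
Cdh15: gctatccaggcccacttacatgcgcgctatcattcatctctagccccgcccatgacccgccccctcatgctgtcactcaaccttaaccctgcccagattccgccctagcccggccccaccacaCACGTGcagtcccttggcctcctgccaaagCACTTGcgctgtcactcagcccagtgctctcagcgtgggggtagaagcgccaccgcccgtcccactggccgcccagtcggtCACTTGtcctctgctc
Mef2a: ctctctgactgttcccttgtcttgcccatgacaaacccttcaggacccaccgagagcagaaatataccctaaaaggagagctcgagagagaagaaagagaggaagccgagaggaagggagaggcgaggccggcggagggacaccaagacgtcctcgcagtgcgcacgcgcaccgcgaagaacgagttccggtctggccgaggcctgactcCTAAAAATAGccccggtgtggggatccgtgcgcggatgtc
Myog held 2 E-boxes, the nearer one 31 to 26 bases before the start, Cdh15 held 3, and Myf6 held 1 E-box at 29 to 24 bases. Myf6 also held a MEF2 site at 76 to 67 bases, which overlapped a TATAAA match (either strand searched) at 71 to 66 bases, and Mef2a held a MEF2 site at 40 to 31 bases. Of the 33469 rat promoters of the same length, 65.5% held an E-box, 2.96% a MEF2 site and 12.9% a TATAAA. An E-box is thus found in most rat promoters and a MEF2 site in few. The windows of Pax7, Myf5 and Mef2d held no match to either pattern. Myf5 and Myf6 lie 8675 bases apart, start to start, on the same strand of chromosome 7.

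Training was compared with sedentary housing in SM first. None of the 9 genes was called, in a comparison where 28 of 13570 genes, or 0.206%, were called (25 higher and 3 lower in ExT, with 1860 genes at an unadjusted p under 0.05). The levels of the satellite cell markers, of the myogenic factors and of the MEF2 factors overlapped between the groups throughout. For 7 of the 9 genes the 95% confidence interval of the fold lay between 0.858 and 1.21. It was wider for Myod1 (0.741 to 1.25) and for Myf5 (0.949 to 1.60), the most variable of the 9.

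**Figure D1:**
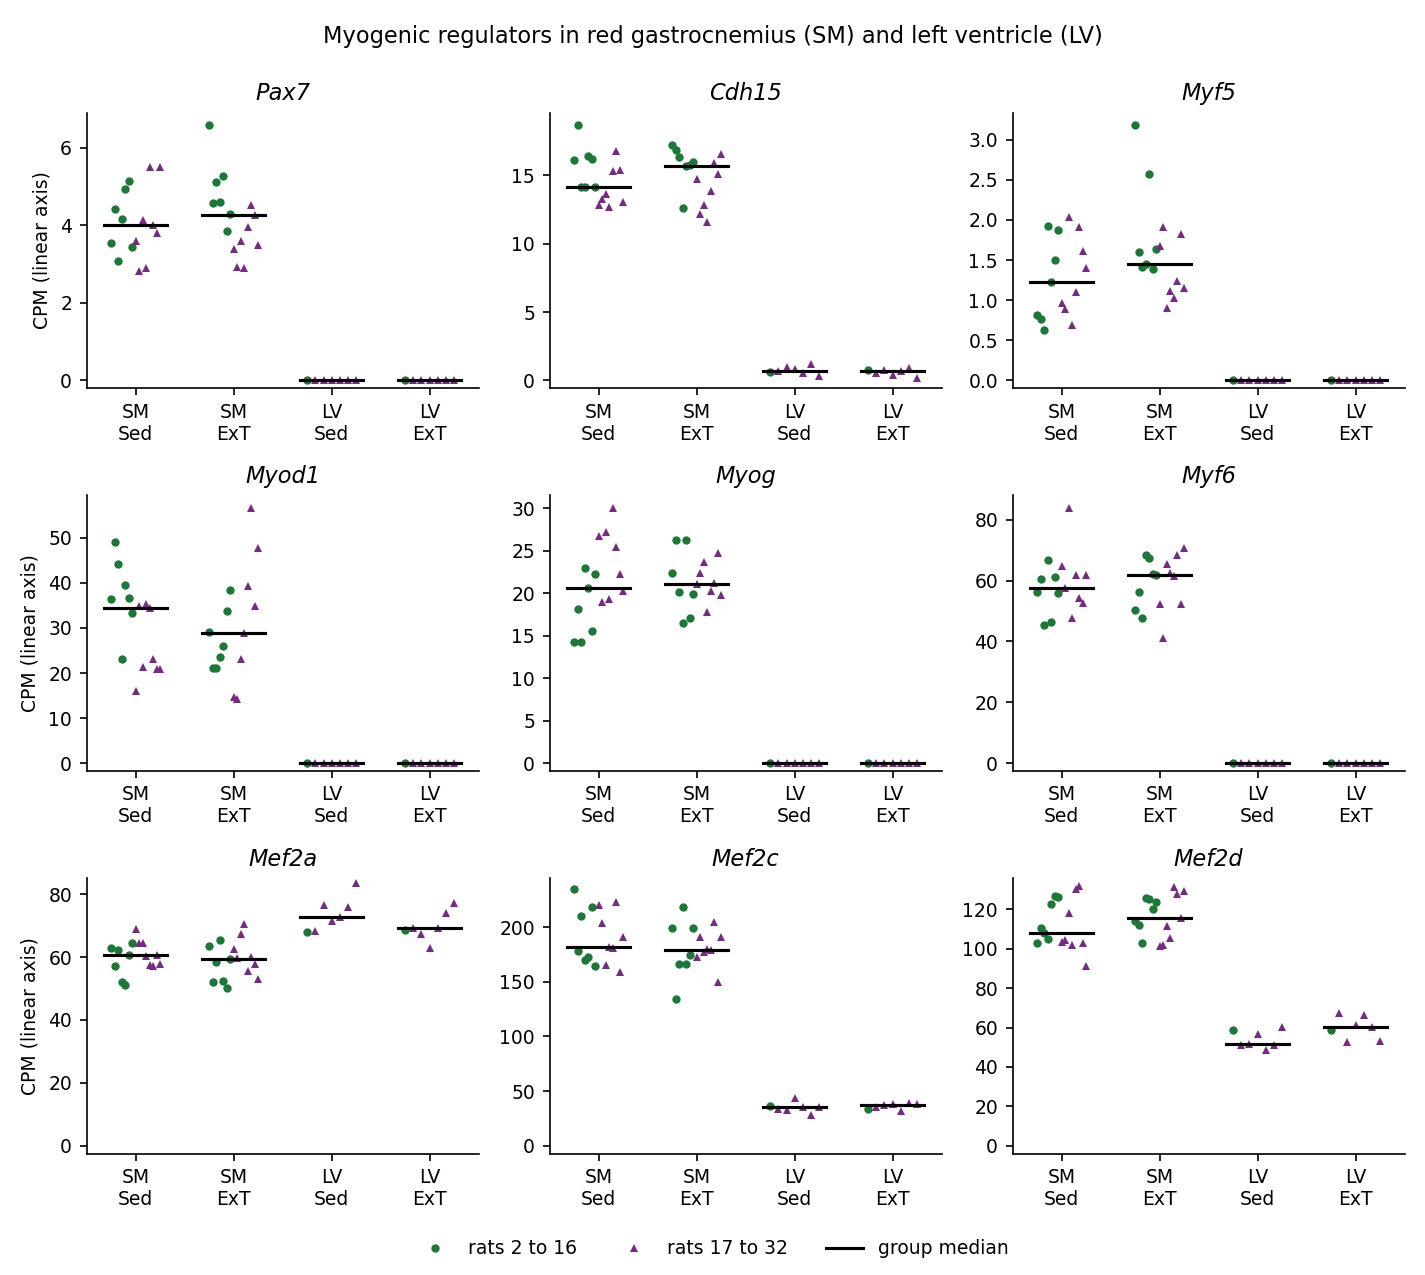
Level of each gene in each library, in CPM on linear axes, by tissue and group; circles are rats 2 to 16, triangles rats 17 to 32 and bars group medians. Sed and ExT overlap in SM for all 9 genes, and in LV only Mef2a, Mef2c, Mef2d and, at a low level, Cdh15 stand clear of 0.

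Pax7 (ENSRNOG00000018739), the paired-box factor of satellite cells, ran from 2.82 over a median of 4.02 to 5.51 CPM in SM_Sed and from 2.91 over 4.25 to 6.57 CPM in SM_ExT, resting on 68 to 168 counts a library. The highest library was that of ExT rat 2, and 8 of 15 ExT libraries lay above the Sed median. Training moved it by 0.05 on the log2 scale (SE 0.111, edgeR adjusted p 0.877). Cdh15, M-cadherin, which joins satellite cells to the fibre, ran from 12.7 over 14.2 to 18.7 CPM in SM_Sed and from 11.6 over 15.7 to 17.2 CPM in SM_ExT. Of the ExT libraries 10 of 15 lay above the Sed median and 3 below the Sed minimum, and the log2 fold change was 0.00 (SE 0.0632, adjusted p 0.996).

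Myf5, the earliest of the myogenic factors in the embryo, had the lowest counts of the 9 in SM, 14 to 82 a library. It ran from 0.631 over 1.23 to 2.04 CPM in SM_Sed and from 0.906 over 1.45 to 3.18 CPM in SM_ExT. Of the ExT libraries 11 of 15 lay above the Sed median and 2 above the Sed maximum, those of rats 2 and 10. Its means were 1.29 ± 0.496 and 1.61 ± 0.602 CPM (SD, n = 15 each), a log2 fold change of 0.30 (SE 0.184), the largest of the 9, with an edgeR adjusted p of 0.480. Without rat 2 it was 0.21, the lowest value on leaving out single libraries. Beside it, the summed level of 9 slow-fibre genes had a median of 14048 CPM in SM_Sed (4754 to 26917) and 18578 CPM in SM_ExT (4998 to 29670), and rats 2 and 10 had the highest 2 sums of all 30. The part of fibre make-up in the Myf5 difference was not tested.

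Myod1, the factor known for turning other cells into myoblasts, varied most between rats after Myf5. It ran from 16.02 over 34.5 to 49.2 CPM in SM_Sed and from 14.2 over 28.8 to 56.6 CPM in SM_ExT. The lowest and the highest of all 30 libraries were both trained rats, 18 and 26, and they differed 3.97-fold. The log2 fold change was -0.05 (SE 0.185, adjusted p 0.927). Myog, myogenin, ran from 14.2 over 20.6 to 30.02 CPM in SM_Sed and from 16.5 over 21.0 to 26.3 CPM in SM_ExT, every ExT library lying inside the Sed range. Its log2 fold change was 0.00 (SE 0.0936, adjusted p 0.992). Myf6 (MRF4) ran from 45.4 over 57.5 to 83.8 CPM in SM_Sed and from 41.3 over 61.9 to 70.7 CPM in SM_ExT, or 0.02 on the log2 scale (SE 0.0779, adjusted p 0.935).

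Over the 30 libraries the coefficient of variation was 8.92% for Mef2a, 10.1% for Mef2d and 12.6% for Mef2c, against 11.8% for Cdh15. Mef2a ran from 51.1 over 60.6 to 69.0 CPM in SM_Sed and from 50.3 over 59.3 to 70.5 CPM in SM_ExT (-0.02 on the log2 scale, SE 0.0498, adjusted p 0.874). Mef2c ran from 159 over 182 to 234 CPM in SM_Sed and from 134 over 179 to 218 CPM in SM_ExT, the lowest library being ExT rat 5. Its log2 fold change was -0.09 (SE 0.0653, adjusted p 0.569). Mef2d ran from 91.4 over 108 to 132 CPM in SM_Sed and from 102 over 116 to 131 CPM in SM_ExT, and 11 of 15 ExT libraries lay above the Sed median. The log2 fold change was 0.05 (SE 0.0547, adjusted p 0.712).

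The other genes of the pathway gave the same count. Of 26 satellite cell genes tested, Pax7, Cdh15 and Myf5 among them, 0 were called and 6 had an unadjusted p under 0.05. The unadjusted edgeR p was 0.654 for Pax7, 0.981 for Cdh15 and 0.114 for Myf5. The median log2 fold change of the list was 0.13, against -0.01 over all 13570 genes. None was called among 17 partners and inhibitors of the basic helix-loop-helix factors, 22 MEF2 co-regulators, 19 upstream homeobox and chromatin factors, 20 genes of myoblast fusion and early differentiation, and 20 genes of myostatin, Igf and other growth signals. In that order, 1, 4, 4, 3 and 2 of them had an unadjusted p under 0.05, and the list medians lay between -0.06 and 0.06. Markers of fibre types and of other cells were not called either. Over all 13570 genes, 1860 had an unadjusted p under 0.05. At that level were 0 of 9 slow-fibre, 0 of 8 fibro-adipogenic and fibroblast, and 2 of 8 regenerating or denervated fibre genes. The same held for 1 of 2 adipocyte and 0 of 2 cardiomyocyte genes tested. The other marker lists follow with their sums. Of the 8 fast-fibre genes, 7 had an unadjusted p under 0.05, and their sum had a median of 84517 CPM in SM_Sed (56218 to 122772) and 76227 CPM in SM_ExT (51640 to 89519). Schwann cell and nerve markers summed to a median of 39.8 CPM in SM_Sed (11.7 to 138) and 89.3 CPM in SM_ExT (29.5 to 168), with 2 of 8 at an unadjusted p under 0.05. Endothelial markers summed to 431 CPM (299 to 579) and 481 CPM (399 to 602), with 6 of 7 at that level. Pericyte and smooth muscle markers summed to 584 CPM (458 to 688) and 651 CPM (554 to 823), with 4 of 8 at that level. Immune markers summed to 58.4 CPM (38.4 to 125) and 50.6 CPM (32.8 to 69.5), with 4 of 7 tested at that level and a median log2 fold change of -0.33. Their part in the list values was not tested.

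Of the 9 genes, Myod1, Myf5, Pax7 and Myog had training estimates farthest apart between the 2 ranges of rat numbers. No member passed the test for a difference of the training effect between the ranges. In rats 2 to 16 (7 Sed, 7 ExT) the log2 fold change of Myod1 was -0.44 (SE 0.166), and in rats 17 to 32 (8 and 8) it was 0.32 (SE 0.287). The Myod1 median was 36.6 CPM in SM_Sed and 25.96 CPM in SM_ExT in the earlier rats, and 22.2 and 31.8 CPM in the later rats. The values of Myog, Pax7 and Myf5 were the higher ones in the earlier rats. Myog was at 0.22 (SE 0.136) and -0.16 (SE 0.0956), Pax7 at 0.25 (SE 0.132) and -0.14 (SE 0.145), and Myf5 at 0.58 (SE 0.266) and 0.04 (SE 0.230). Within either range 0 of the 9 were called by edgeR, where 2.95% of all genes were called in the earlier and 0.00732% in the later rats, and the smallest adjusted p was 0.134, for Myod1 in the earlier rats.

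The interaction of range and training, later minus earlier, was 0.75 (SE 0.351) for Myod1, with an unadjusted edgeR p of 0.0411 and an adjusted p of 0.364. It was -0.38 (SE 0.170) for Myog, with an unadjusted p of 0.0332 and an adjusted p of 0.344, and -0.40 (SE 0.203, adjusted p 0.406) for Pax7. Over all genes the interaction was called for 0 of 14033, or 0%, with 1803 at an unadjusted p under 0.05 and 46 called by DESeq2, none of them a member. For Myf6 the 2 ranges gave 0.09 and -0.03, and for Mef2a, Mef2c, Mef2d and Cdh15 they differed by at most 0.02.

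**Figure D2:**
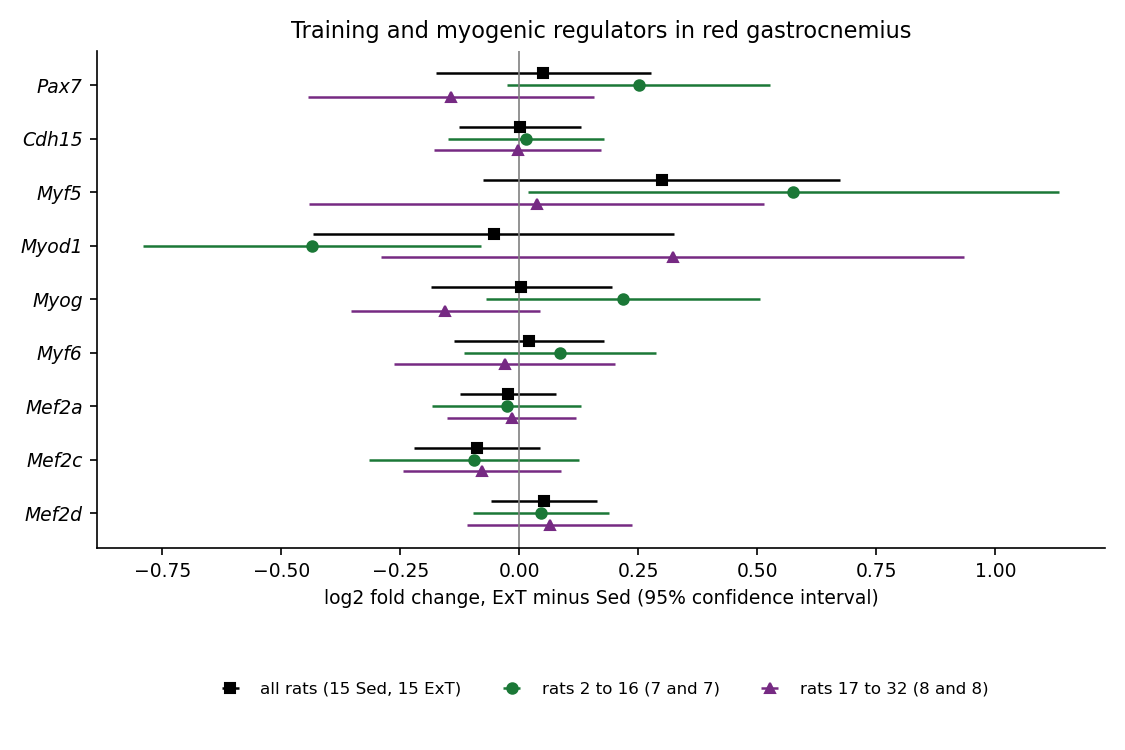
Log2 fold change of ExT over Sed in SM for each gene, with 95% confidence intervals from edgeR, in all rats (squares) and within each range of rat numbers (circles and triangles). Myod1 lies at -0.44 in rats 2 to 16 and 0.32 in rats 17 to 32, while the 3 MEF2 genes and Cdh15 lie close to 0 in both.

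The levels themselves, with the training group in the model, were called between the ranges for 0 of the 9 genes. Cdh15 came nearest, at 15.7 ± 1.53 CPM in the 14 earlier and 14.1 ± 1.59 CPM in the 16 later libraries (SD; log2 fold change -0.16, SE 0.0574, adjusted p 0.0625). Pax7 was at -0.23 (adjusted p 0.139) and Myog at 0.19 (adjusted p 0.162). In the ExT libraries alone Pax7 was lower in the later rats, from a median of 4.603 to one of 3.55 CPM (log2 fold change -0.43, edgeR adjusted p 0.0259). That was the only member called there, 1 of 9, where 1505 of 13686 genes, or 11%, were called. In the Sed libraries alone 0 of the 9 were called, with 35 of 13515 genes, or 0.259%. Both comparisons were added after earlier results were known.

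Correlations between members were taken over the 30 SM libraries after removing each group's mean from log2(CPM + 0.5), with permutation tests of 100000 resamples adjusted over the 36 pairs of members. Of these, 3 pairs passed in both Spearman's rho and Pearson's r, and Pax7 with Myf5, Pax7 with Cdh15 and Myog with Mef2c passed in r alone. Myog rose with Myf5 (rho 0.51, adjusted p 0.0488; r 0.48, adjusted p 0.0456) and kept an r of 0.48 without the 2 libraries farthest from the Myog median. Split by range, r was 0.67 over the 14 earlier and 0.40 over the 16 later rats. Myod1 rose with Mef2d (rho 0.53, adjusted p 0.0488; r 0.51, adjusted p 0.0456), with r at 0.41 without 2 libraries, 0.30 in earlier and 0.58 in later rats. Mef2a fell as Cdh15 rose (rho -0.53, adjusted p 0.0488; r -0.55, adjusted p 0.0344), with r at -0.45 without 2 libraries, -0.31 in earlier and -0.66 in later rats. This last pair did not pass when each range's mean was also removed (rho -0.42, adjusted p 0.113).

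The 2 satellite cell markers, Pax7 and Cdh15, had a rho of 0.49 (adjusted p 0.0559) and an r of 0.54 (adjusted p 0.0344). With each range's mean also removed this pair passed (rho 0.52, adjusted p 0.0404), as did Myog with Mef2c (rho -0.56, adjusted p 0.0288). Split by range, r of Myog with Mef2c was -0.79 in earlier and only -0.14 in later rats. For Pax7 with Cdh15 it was 0.46 and 0.47. Pax7 and Myod1 were unrelated in rank (rho 0.02, adjusted p 0.984). The neighbours Myf5 and Myf6 had a rho of 0.01. Myod1 had a negative rho with Myog (-0.48) and Myf5 (-0.46), but neither pair passed (adjusted p 0.0617 for each). With each range's mean also removed these values were -0.30 (adjusted p 0.254) and -0.34 (adjusted p 0.209). Since all values of a library are shares of 1 total, the pairs are not independent of each other.

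**Figure D3:**
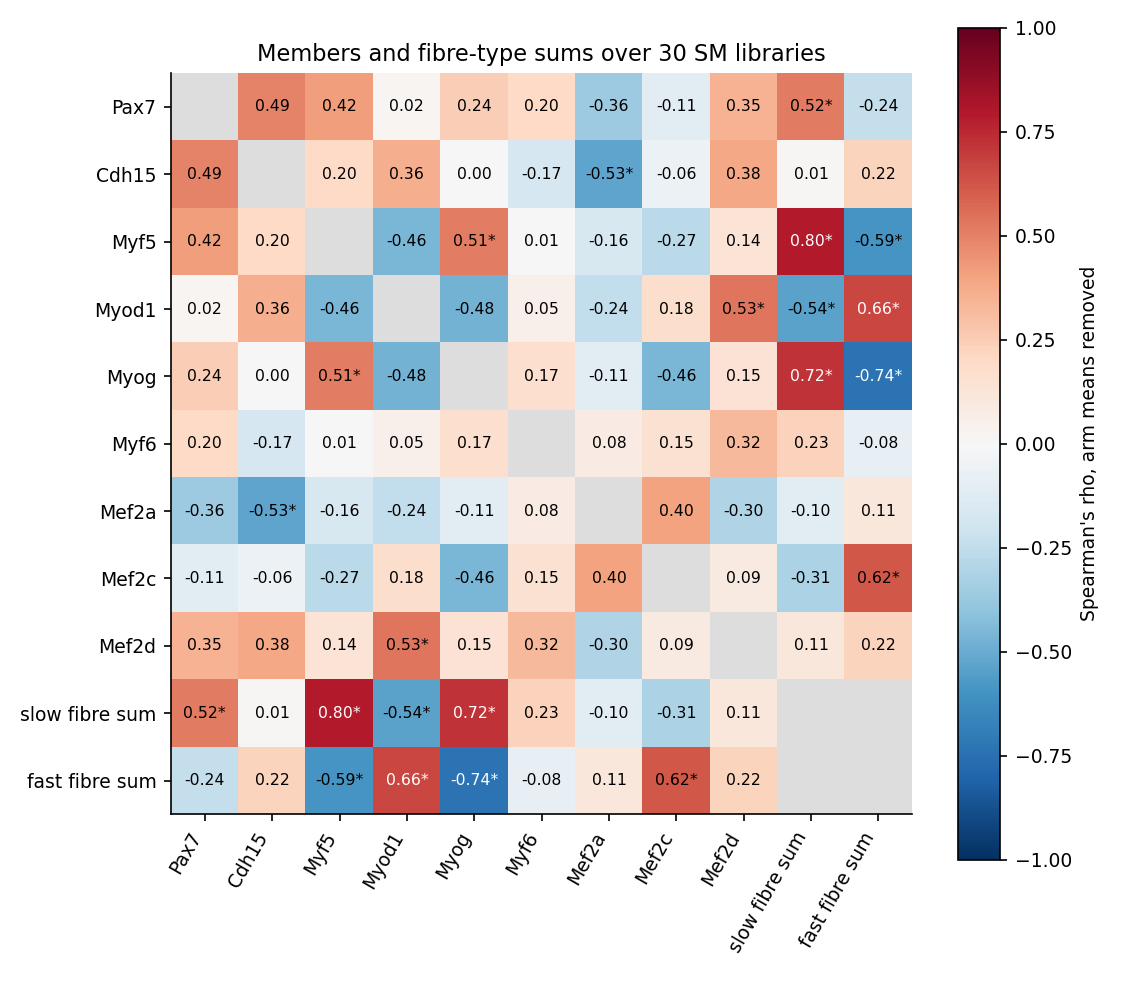
Spearman's rho between genes, and between genes and the summed CPM of slow-fibre and fast-fibre markers, over 30 SM libraries with group means removed; stars mark an adjusted permutation p under 0.05 within the 36 pairs of genes or the 18 pairs with a fibre sum. Myf5 (0.80) and Myog (0.72) follow the slow sum, and Myod1 (0.66) and Mef2c (0.62) the fast sum.

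With the slow-fibre and fast-fibre sums, 8 of 18 pairs passed, and all 8 passed in r as well. This comparison was added after the data were seen, and the share of all genes that pass with these sums was not counted. The slow sum holds contractile genes of oxidative slow fibres, such as Myh7, and their calcium pump Atp2a2, and the fast sum holds contractile genes of fast fibres, such as Myh4. Myf5 rose with the slow sum (rho 0.80, r 0.78, adjusted p 9e-05 for both, from an unadjusted p of 1e-05, the smallest that the permutations can give), with r at 0.78 without the 2 libraries farthest from the median slow sum, 0.90 in earlier and 0.65 in later rats. Its lowest level, 0.631 CPM in Sed rat 8, stood beside a slow sum of 5159 CPM, and its highest, 3.18 CPM in ExT rat 2, beside 27936 CPM.

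Myog rose with the slow sum (rho 0.72, adjusted p 0.00012; r 0.66, adjusted p 0.000495) and fell with the fast sum (rho -0.74 and r -0.76, adjusted p 9e-05 for both). With the slow sum r was 0.72 in earlier and 0.70 in later rats, and with the fast sum -0.83 and -0.56. Myod1 did the reverse, with a rho of -0.54 on the slow sum (adjusted p 0.00625; r -0.52, adjusted p 0.00729) and 0.66 on the fast sum (adjusted p 0.00104; r 0.57, adjusted p 0.00306). With the fast sum its r came to 0.66 among earlier and 0.42 among later rats. Mef2c rose with the fast sum (rho 0.62, adjusted p 0.00130; r 0.66, adjusted p 0.00042), at an r of 0.72 and 0.73 in the 2 ranges. Myf5 fell with the fast sum (rho -0.59, adjusted p 0.00213; r -0.57, adjusted p 0.00306), and Pax7 rose with the slow sum (rho 0.52, adjusted p 0.00884; r 0.55, adjusted p 0.00432; r 0.42 without 2 libraries). Myf6, Mef2a, Mef2d and Cdh15 passed with neither sum.

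**Figure D4:**
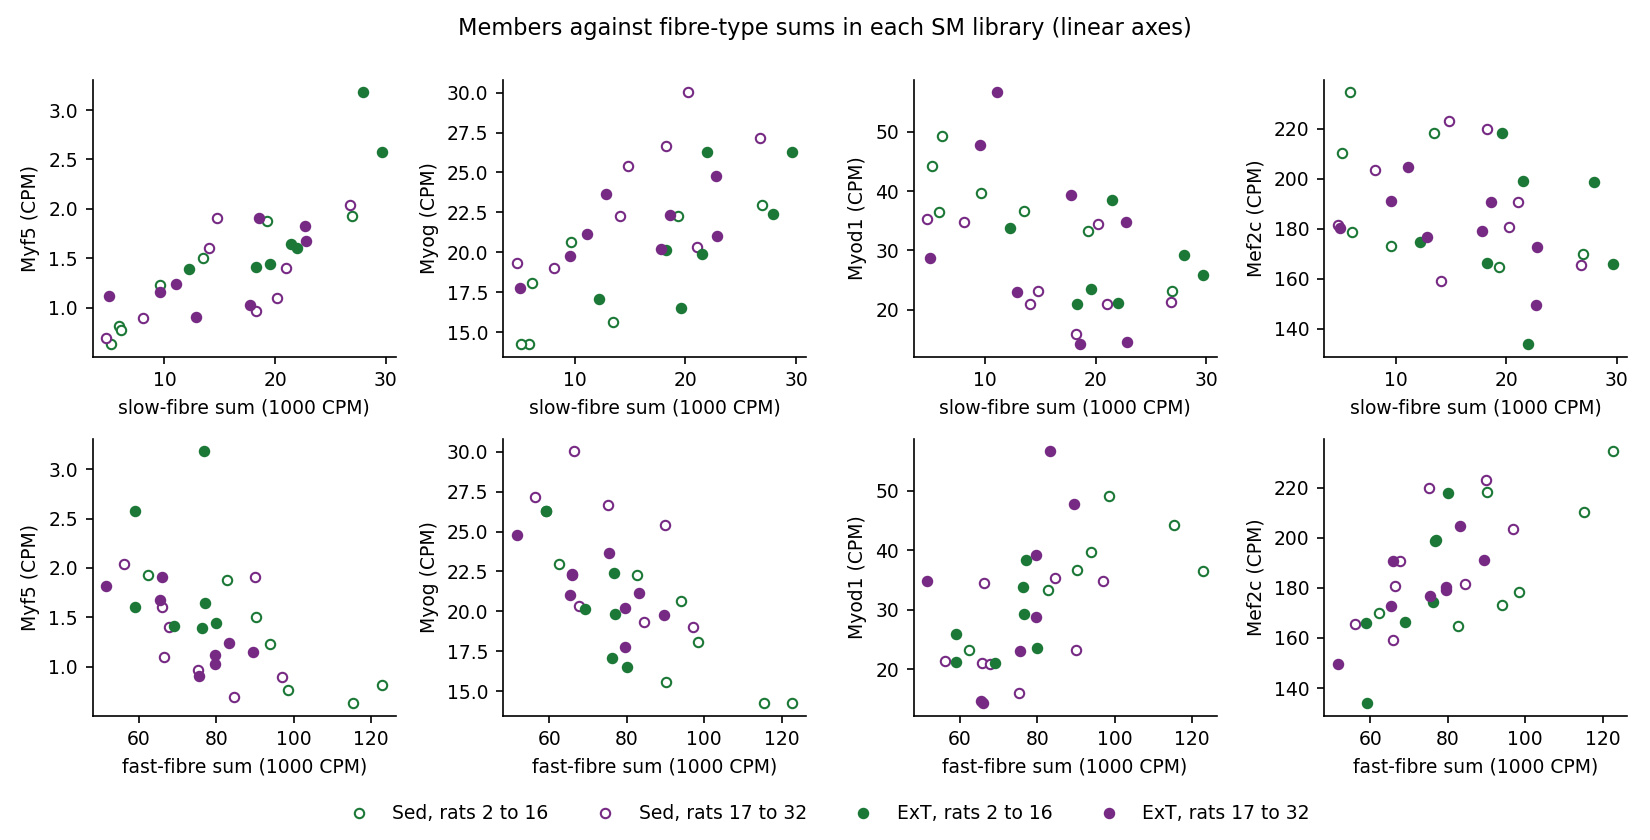
CPM of Myf5, Myog, Myod1 and Mef2c against the summed CPM of 9 slow-fibre (top) and 8 fast-fibre genes (bottom), 1 point per SM library, open for Sed and filled for ExT, coloured by range of rat numbers. Myf5 climbs with the slow sum from 0.631 CPM in Sed rat 8 to 3.18 CPM in ExT rat 2, and Myod1 is low where the slow sum is high.

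The genes whose levels followed a member most closely were found among 11311 genes with a mean of at least 1 CPM, by rho over the same 30 libraries, and are given as a description. For Mef2d they were Prrc2a (rho 0.90) and Wnk2 (0.88). For Myod1 they were Tulp4 (0.88), Mylk2 (0.86), the skeletal muscle myosin light chain kinase, and Hsf4 (0.85). Myf5 was followed by Gcat (0.86), AC128207.1 (0.83) and Smtnl1 (0.83), and Myog by Ncf1 (0.81), Mtch1 (0.80) and Kremen1 (0.80). Mef2c was followed by Usp47 (0.83), Dcaf6 (0.81) and Msrb3 (0.81), and Mef2a by Rock2 (0.83), Eif3j (0.80) and Lmbrd2 (0.79). The satellite cell markers had looser company, with Kcnn3 (0.76), Gstm2 (0.75) and Nisch (0.74) for Pax7 and Myg1 (0.76), Syvn1 (0.74) and Rnh1 (0.73) for Cdh15. In earlier and later rats the Pax7 values were 0.59 and 0.73 for Kcnn3, 0.68 and 0.74 for Gstm2, and 0.47 and 0.86 for Nisch. Those of Cdh15 were 0.40 and 0.89 for Myg1, 0.61 and 0.62 for Syvn1, and 0.39 and 0.63 for Rnh1. Myf6 had the loosest, with Top1 (0.67), Nfil3 (0.65) and Zbtb26 (0.64). None of these genes is another of the 9 members.

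The heart was then set against the muscle of the same rats, 7 per group, on levels scaled together. In both training groups 8 of the 9 members were called lower in LV, and Mef2a was not called. Of all genes 78.7% were called in either direction in Sed and 79.3% in ExT, and 38.6% and 39.5% were called lower. Pax7, Myod1 and Myf5 had 0 counts in all 14 LV libraries. Set against 3 counts in the LV library where these weigh most, Pax7 was at least 100.0-fold lower in Sed and at least 80.1-fold lower in ExT, Myod1 at least 640-fold and 735-fold lower, and Myf5 at least 34.0-fold and 31.3-fold lower. In SM of these rats Pax7 averaged 4.33 ± 1.10 CPM in Sed and 4.14 ± 0.629 CPM in ExT (SD, n = 7 each).

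Myog had 1 count in the 7 LV_Sed and 1 in the 7 LV_ExT libraries, against 25.1 ± 4.11 and 23.1 ± 1.88 CPM in SM (SD, n = 7 each). The ratio of SM to LV was 13116 in Sed (95% exact interval 2354 to 518034, counting error only). Myf6 had 6 counts in each LV group, 4 of the Sed counts in rat 19 and all 6 ExT counts in rat 26, against 61.8 ± 4.93 and 63.2 ± 11.2 CPM in SM. Its ratio was 5389 (2476 to 14686) in Sed and 5115 (2350 to 13937) in ExT.

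Cdh15 had counts in every LV library, 13 to 84 each, where Pax7 had none, or 0.204 to 1.21 CPM. It averaged 0.676 ± 0.275 CPM in LV_Sed against 15.2 ± 1.53 CPM in SM_Sed, which is 22.2-fold lower (log2 fold change -4.48, SE 0.198, adjusted p 7.5e-13), and 27.97-fold lower in ExT (-4.81, SE 0.194). Mef2c averaged 32.4 ± 4.47 CPM in LV_Sed and 203 ± 26.8 CPM in SM_Sed, 6.26-fold lower (log2 fold change -2.65, SE 0.0991, adjusted p 6.2e-15), and 5.86-fold lower in ExT (-2.55, SE 0.0768). Mef2d averaged 49.8 ± 4.54 against 119 ± 16.98 CPM in Sed, 2.40-fold lower (-1.26, SE 0.0861, adjusted p 6.5e-11), and 2.29-fold lower in ExT (-1.20, SE 0.0774). The groups of libraries did not overlap for any of these 3 genes. The share of all genes that stood apart in this way was not counted. Calls in either direction took 78.7% of all genes in Sed and 79.3% in ExT.

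With TMM scaling Mef2a was close between the tissues, at 67.8 ± 4.63 CPM in LV_Sed and 65.1 ± 4.78 CPM in SM_Sed (log2 fold change 0.06, SE 0.0604, adjusted p 0.383; fold 1.04, 95% interval 0.954 to 1.14). In ExT it was 0.05 (SE 0.0560, adjusted p 0.434). With library totals in place of TMM it was called higher in LV, at 0.30 in Sed and 0.25 in ExT, where the median of all genes had moved to 0.27 and 0.21. As CPM of the nuclear genes alone, over all libraries, Mef2a had a median of 129 in LV (109.0 to 154) and 86.8 in SM (73.6 to 108.7). The median of all protein-coding genes on that scale was 2.08 in LV and 1.51 in SM.

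The other myogenic genes were counted by list, beside 38.6% of all genes called lower and 40% called higher in LV_Sed (39.5% and 39.7% in ExT), and the genes named are among those with the largest differences in each list. Among 26 satellite cell genes tested in Sed, 16 were called lower and 5 higher in LV (median log2 fold change -0.42, against 0.04 over all genes). Calcr, the calcitonin receptor of resting satellite cells, averaged 0.907 CPM in SM_Sed and 0.00377 CPM in LV_Sed, and Chodl 7.41 and 0.227 CPM. Of 18 upstream homeobox and chromatin factors, 13 were lower and 4 higher (median -1.72). Lbx1, which marks muscle precursors migrating to the limb, averaged 28.7 CPM in SM_Sed and had no count in LV_Sed. Six2 averaged 8.38 and 0.0401 CPM, and Pitx3 8.26 and 0.0526 CPM.

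Of 22 MEF2 co-regulators, 17 were lower and 3 higher in LV_Sed (median -0.54). Vgll2, a TEAD cofactor of muscle, averaged 42.6 CPM in SM_Sed and 0.0253 CPM in LV_Sed. Mamstr, a MEF2 coactivator, averaged 10.0 and 0.864 CPM (log2 fold change -3.53, SE 0.205, adjusted p 2.2e-11), the MEF2-repressing deacetylase Hdac4 26.9 and 5.38 CPM (-2.32, SE 0.139, adjusted p 3.3e-11), and Mrtfa 28.6 and 5.85 CPM (-2.29, SE 0.113, adjusted p 6.0e-13). Among 18 partners and inhibitors of the helix-loop-helix factors 8 were lower and 8 higher (median -0.14), shares close to those over all genes. Id2, which lacks a DNA-binding region and blocks the partners of Myod1, was higher in LV, at 10.7 against 2.10 CPM (2.34, SE 0.147). Bhlhe40 averaged 85.6 CPM in SM_Sed and 17.1 CPM in LV_Sed, Bhlhe41 18.1 and 5.601 CPM, and Twist2 0.683 and 0.250 CPM.

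Of 20 genes of fusion and early differentiation, 12 were lower and 6 higher (median -1.01). The developmental myosins Myh3 and Myh8 averaged 23.2 and 4.64 CPM in SM_Sed, and 0.0647 and 0 CPM in LV_Sed. Among the 6 higher ones, cardiac troponin T (Tnnt2) was at 3.60 CPM in SM_Sed and 2201 CPM in LV_Sed, and Ankrd1 at 6.32 and 1086 CPM. Of 20 growth signal genes 12 were lower and 5 higher (median -0.86). Myostatin (Mstn), the muscle growth inhibitor, averaged 5.11 CPM in SM_Sed and 0.510 CPM in LV_Sed (-3.31, SE 0.240), Fgf2 7.28 and 0.411 CPM, Wnt4 3.50 and 0.0278 CPM and Rspo3 4.18 and 0.0548 CPM. In ExT the 6 lists had 8 to 17 genes called lower and 3 to 7 called higher.

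Within LV, training was tested for the 4 members with enough counts, and 0 were called, as were 0 of 14488 genes, or 0%, with 855 at an unadjusted p under 0.05 and 1 called by DESeq2. Mef2d ran from 48.8 over 51.6 to 60.5 CPM in LV_Sed and from 52.6 over 60.4 to 67.5 CPM in LV_ExT. All 7 ExT libraries lay above the Sed median and 3 above the Sed maximum. Its log2 fold change was 0.15 (SE 0.0652, unadjusted edgeR p 0.0326, adjusted p 0.804). Mef2a was at -0.08 (SE 0.0542), Mef2c at 0.05 (SE 0.0733) and Cdh15 at -0.26 (SE 0.309). The difference of the training effect between LV and SM was called for 0 of 15049 genes, or 0%, with 687 at an unadjusted p under 0.05 and 1 called by DESeq2, no member. It was 0.09 (SE 0.117) for Mef2d, 0.12 (SE 0.122) for Mef2c and 0.01 (SE 0.0796) for Mef2a. For the genes at or near 0 counts in LV it has no meaning and is not given.

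In the mitochondrial fraction the members had 1 to 92 counts a library, and for the training effect 8 were tested and 0 were called, as were 0 of 19281 genes, or 0%, with 905 at an unadjusted p under 0.05. Mef2d was at -0.23 (SE 0.10, unadjusted edgeR p 0.0258, adjusted p 1.00), in the opposite direction to LV. Against SM, nearly all genes were called, 94.8% in Sed and 94.3% in ExT (61.7% and 59.3% higher, 33.1% and 35% lower), so a call there says little about a member. In Sed 6 members were lower in MT and Pax7 (log2 fold change 0.67, SE 0.128) and Myf5 (0.93, SE 0.197) were higher. Cdh15 was at -0.15 (SE 0.0909, adjusted p 0.102). In ExT 7 were lower, among them Cdh15 (-0.25, adjusted p 0.00481), which turned positive with RLE factors (0.12), DESeq2 (0.12) and library totals (1.38). Pax7 was higher (0.56) and Myf5 was not called (0.36, adjusted p 0.0950).

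The median of all genes lay at 1.81 in Sed and 1.31 in ExT, and all 9 members lay below it in both. How many other genes of like level in SM lay below it was not counted. Relative to that median Pax7 and Myf5 were at -1.14 and -0.89 in Sed. As CPM of the nuclear genes alone, Pax7 had a median of 5.98 in SM (3.90 to 9.34) and 37.9 in MT (16.4 to 61.0), and Cdh15 of 22.2 (17.8 to 26.98) and 80.3 (48.8 to 134). Mef2c had 268 in SM (211 to 317) and 33.7 in MT (18.5 to 52.1), and Myf6 86.8 (57.8 to 127) and 18.3 (6.17 to 30.2). Myod1 went from 45.4 to 23.7, Mef2d from 170 to 63.7 and Mef2a from 86.8 to 35.8. On the same scale 1260 odorant and vomeronasal receptor genes, which muscle is not known to express, went from a median of 0 in SM to 9.76 in MT. Their quartiles in MT were 6.26 and 17.5. Myf5 went from 2.07 in SM to 13.5 in MT, where 66.7% of the receptor genes lay below it. The median of all protein-coding genes went from 1.51 in SM to 30.8 in MT.

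**Figure D5:**
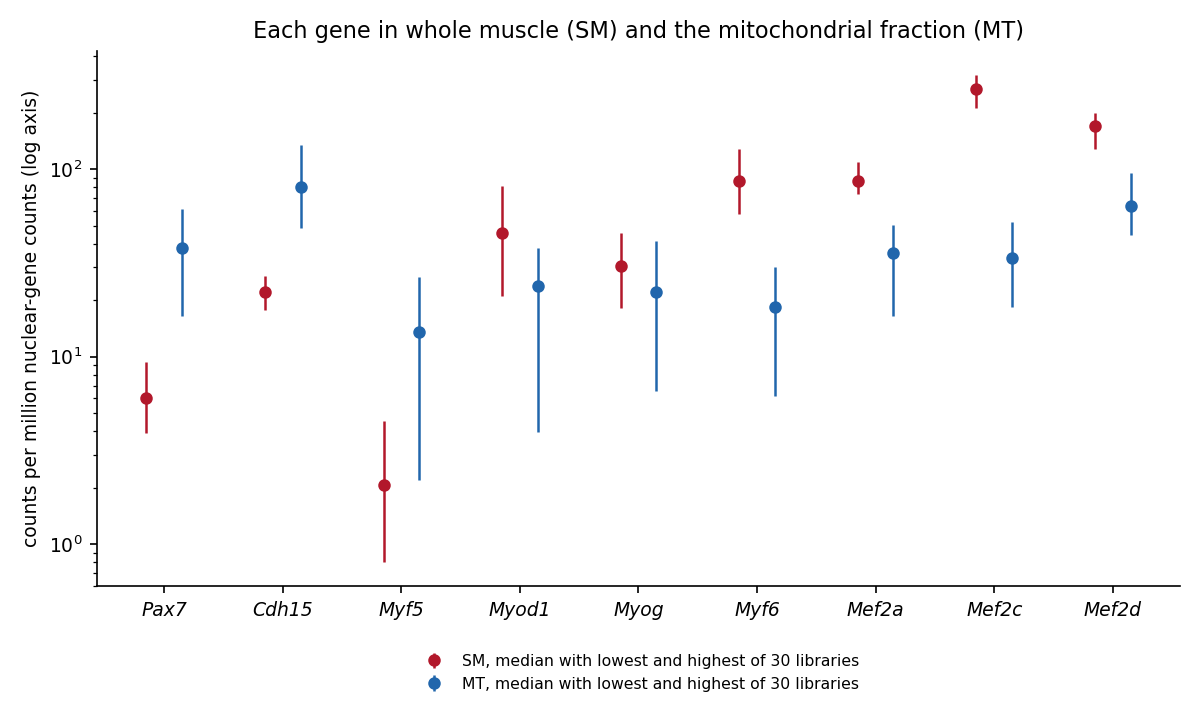
CPM of each gene among nuclear genes, on a log axis, in whole muscle (red) and in the mitochondrial fraction (blue), as the median with the lowest and highest of 30 libraries. Pax7, Cdh15 and Myf5 lie higher in MT than in SM and the other 6 lower; gene length is not accounted for, so each gene is compared with itself.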

How the data were processed

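Gene counts of 74 libraries were used as deposited by the authors, as whole-number counts per gene in 1 table for each tissue. Per the submitters' processing notes, FastQC 0.74, cutadapt 4.6, STAR 2.7.11a and HTSeq were used with the mRatBN7.2 build; the annotation release and strand setting are not given in the sources used here, so a gene and an overlapping antisense gene may share counts. No column of another sample was present (0). No exon lengths of that build were used here, so levels are not compared between genes per length as had been intended. Counts were tested with edgeR 4.0.16 (TMM, filterByExpr, robust quasi-likelihood F test, Benjamini-Hochberg over all genes tested) in R 4.3.3, without a block, and the procedure was tested on simulated data. Each CPM was computed within the table or the comparison it is printed for. Permutations used 100000 resamples with 10 or more values. Rat numbers mark the same animal across SM, MT and LV, and same-rat deviations had a median correlation of 0.0359 for LV with SM (14 rats, 13058 genes; -0.00 for other rats) and 0.0174 for MT with SM (30 rats, 12652 genes). The block of rats changed no call of a member and moved no count of calls by over 1.5 times.

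The members and lists were chosen with earlier results of these data known. Named are all members, list genes called for training in SM (up to 5 a list) or LV (up to 3), up to 4 a list with the largest log2 fold change among those called between LV and SM in both groups, and the 3 genes most like each member; some genes that this rule names are not reported here. The symbols Ep300 (on 2 rows), Chrng and Il6ra, and Myh1, Atp2a1, Pvalb and Cldn5 among the markers, are not analysed here. Alternatives were RLE factors, library totals, no filter on low counts, DESeq2 1.42.0, thinning, the range of rat numbers, the rats as a block, leaving out mitochondrial-genome genes, and leaving out each library in turn. Intervals and floors of 3 counts cover counting error only.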

Additional observations from a re-analysis of the deposited data

Results flagged for a closer look

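Of the 12 sets of 7 LV libraries with any count of a member, 4 had 1 library standing apart from the rest. Chance gives about 1 in 20 for continuous values, a rate that does not apply to 3 of the 4, where any count stands apart because the other libraries are at 0. Myog stood at 0.0125 CPM in Sed rat 20 and at 0.0151 CPM in ExT rat 25, 1 count each, with the other 6 libraries of each group at 0. Myf6 stood at 0.0583 CPM (4 counts) in Sed rat 19, with the next library at 0.0151 CPM, and at 0.0987 CPM (6 counts) in ExT rat 26, with the others at 0. The ratios of SM to LV given for both genes rest on these counts.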

How the results depend on the processing

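Of 1474 values under alternatives, 1431 kept their side of the threshold and, where called, their direction, and 52 values changed sign without being called under either setting. The number of members called for training was 0 under every alternative in SM, LV and MT. Over all genes, the 28 genes called for training in SM became 136 with DESeq2, 45 with the range of rat numbers as a covariate, 396 in rats 2 to 16 alone and 1 in rats 17 to 32 alone, and 12 to 100 on leaving out single libraries (12 without Sed rat 4, 8 or 12 or ExT rat 27, 100 without Sed rat 23). With DESeq2, 1 gene was called for training in LV, 1 for the difference between LV and SM, and 46 for that between the ranges. Between the ranges 35 genes were called in Sed libraries alone, and 1 member in ExT libraries alone. Thinned to the smallest library, MT against SM had 6087 genes called in Sed and 4100 in ExT, with 4 members called in ExT, where fewer genes could be tested. Cdh15 in MT against SM reversed in Sed with RLE factors (0.25), library totals (1.42), DESeq2 (0.24) and thinning (1.25), and in ExT with RLE factors (0.12), library totals (1.38) and DESeq2 (0.12); the cause was not tested, and the median of all genes moved with the scaling to 3.41 in Sed with library totals. Myf5 in ExT was called with RLE factors, library totals and DESeq2 (0.73, 1.89 and 0.73). With the replicate block of rats, 11174 and 11224 genes were called between LV and SM in Sed and ExT, and 21626 and 20068 between MT and SM, with 8 members called each time and no other call of a member changed. Depth limits Myf5 in SM and all members in MT, where 3 counts weigh 0.300 to 5.66 CPM.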
